A study of Mus musculus with 6 samples.

Results

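The p53 targets described here were 10 genes chosen by name for roles in cell cycle arrest and the stress response, *Cdkn1a*, *Ccng1*, *Btg2*, *Gtse1*, *Plk2*, *Sesn1*, *Sesn2*, *Gdf15*, *Phlda3* and *Zmat3*, of 36172 genes in the table. All 10 reached 4 rpkm (reads per kilobase of transcript, scaled to the mapped reads of the library) in at least 1 library and were among the 10042 genes tested. They were measured by RNA sequencing of intestinal tumor-derived organoids, epithelial cultures grown in a gel, from C57BL/6 mice of 15 to 20 weeks of age. The 6 libraries were 2 of each of 3 *Trp53* genotypes, made from organoids of different mice. All groups carried the *Apc* truncation that the labels write as Apc(D716), with loss of heterozygosity. The *Trp53*+/+ organoids kept intact *Trp53*. The *Trp53*flox/flox organoids carried the floxed LSL R270H allele on both chromosomes, which acts as a null allele as long as its stop cassette is in place. The paper describes the mice of this genotype as also carrying *villin*-CreER, a Cre of the intestinal epithelium. The *Trp53*R270H/R270H organoids, p53(M/M) in the labels, came from mice in which tamoxifen-activated *villin*-CreER had removed the cassette, so that both alleles encoded the missense protein p53 R270H. Tamoxifen was named for that genotype alone in the sources used here, so its part in any difference from that genotype cannot be told apart from the allele.

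The transcription factor p53 binds a pair of short half-sites in DNA and, when damage or other stress stabilizes it, raises transcription of genes that halt the cell cycle, limit oxidative and metabolic stress, or start apoptosis. R270H changes a residue of the DNA-binding domain, and such contact mutants lose most sequence-specific binding while the protein accumulates. In the intestinal epithelium, p21, the product of *Cdkn1a*, is the best known effector of p53-dependent arrest after damage.

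*Trp53* itself stood at 75.9 and 74.3 rpkm in the *Trp53*+/+ libraries, at 1.73 and 2.48 in *Trp53*flox/flox, with 72.8 and 82.7 in *Trp53*R270H/R270H. The transcript was thus low where the label says null and present where it says missense. *Mdm2*, the p53 target that encodes the ligase that degrades p53, stood at 40.5 and 44.2, then 14.4 and 16.9, then 23.0 and 22.5 rpkm. The lowest value in the table was 1 rpkm, called the floor here, at which 23760 genes stayed throughout, so lower levels are not known. Read counts are not part of the table, and the p-values measure the spread between these 2 preparations a genotype. That spread was uneven. The median SD of log2(rpkm+1) was widest between the *Trp53*flox/flox libraries, at 0.247, against 0.0463 for *Trp53*+/+ and 0.0621 for *Trp53*R270H/R270H.

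The DNA in front of the members was searched for the half-site of 10 bases that p53 recognizes, because the members are set apart by this factor. RefSeq promoter windows on GRCm38.p6, 250 bases before to 50 after a start, matched 9 of the 10 members with 13 windows. *Zmat3* had no entry. An exact half-site lay in 4 of the 13 windows, those of *Cdkn1a*, *Ccng1*, *Gtse1* and *Sesn1*, against 8.36% of 32851 windows of all genes. A pair of half-sites with at most 1 mismatch and 0 to 13 bases apart lay in 3 windows, those of *Cdkn1a*, *Ccng1* and *Gtse1*, against 1.09% of all windows. The mismatch limit was chosen after matches had been seen. The half-site reads the same on both strands. The stretches shown hold these matches in capitals, 5′ to 3′ on the strand of the gene, at chr17:29090729-29090975 on the plus strand for *Cdkn1a*, chr11:40755312-40755536 on the minus strand for *Ccng1*, chr15:85859945-85859964 on the plus strand for *Gtse1* and chr10:41887189-41887438 on the plus strand for *Sesn1*.
Cdkn1a: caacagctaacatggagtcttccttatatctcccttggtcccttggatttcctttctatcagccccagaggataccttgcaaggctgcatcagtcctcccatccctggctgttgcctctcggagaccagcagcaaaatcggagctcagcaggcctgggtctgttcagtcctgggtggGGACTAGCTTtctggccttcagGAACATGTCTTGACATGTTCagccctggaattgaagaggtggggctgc
Ccng1: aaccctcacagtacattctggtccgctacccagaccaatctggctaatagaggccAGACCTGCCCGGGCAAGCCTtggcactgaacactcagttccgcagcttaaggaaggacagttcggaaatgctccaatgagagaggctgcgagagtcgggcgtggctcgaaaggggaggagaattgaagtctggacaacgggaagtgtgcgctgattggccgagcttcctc
Gtse1: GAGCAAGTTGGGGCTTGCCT
Sesn1: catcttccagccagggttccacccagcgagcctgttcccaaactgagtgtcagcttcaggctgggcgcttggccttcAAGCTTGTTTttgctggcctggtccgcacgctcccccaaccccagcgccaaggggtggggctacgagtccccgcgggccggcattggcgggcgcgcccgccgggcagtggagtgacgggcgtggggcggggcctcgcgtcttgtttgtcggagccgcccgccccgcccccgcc
In *Cdkn1a* the first capitals are an exact half-site and the second are a further exact half-site joined to one with 1 mismatch. In *Ccng1* and *Gtse1* a mismatched and an exact half-site touch each other, and the *Gtse1* pair lies in transcribed sequence, so only its 20 bases are shown. A further *Gtse1* pair, with 1 mismatch and a gap of 1 base, shares the exact half-site and runs past the bases shown. *Sesn1* has a single exact half-site in an internal promoter. The other windows searched for *Cdkn1a*, *Gtse1* and *Sesn1* hold no match. A match is a description of these letters, and the absence of one in *Btg2*, *Plk2*, *Sesn2*, *Gdf15* and *Phlda3* says only that the letters are not in these windows.

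The first comparisons ask whether the targets differ from *Trp53*+/+ when p53 is absent and when both alleles encode p53 R270H. Both use the same *Trp53*+/+ libraries. Against *Trp53*+/+, 8 of 10 members were lower in *Trp53*flox/flox at a limma adjusted p under 0.05, and 8 of 10 were lower in *Trp53*R270H/R270H. They were the same 8 genes, *Cdkn1a*, *Ccng1*, *Btg2*, *Gtse1*, *Sesn2*, *Gdf15*, *Phlda3* and *Zmat3*, and no member was called higher, while *Plk2* and *Sesn1* were not called. Of all genes tested, 6.90% were called lower in *Trp53*flox/flox, with 6.36% in *Trp53*R270H/R270H, and the shares called higher were 4.38% and 5.86%. The median log2 fold change of the members was -1.53 and -1.83, against -0.02 and 0.03 for all genes tested. In 9 of 10 members, all but *Sesn1*, each of the 4 mutant libraries lay below both *Trp53*+/+ libraries, which held for 17.1% of all genes tested. With 2 libraries a genotype, an exact permutation test of a single gene cannot give a two-sided p below 0.333, so the calls rest on the spread that limma shares over genes.

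**Figure D1:**
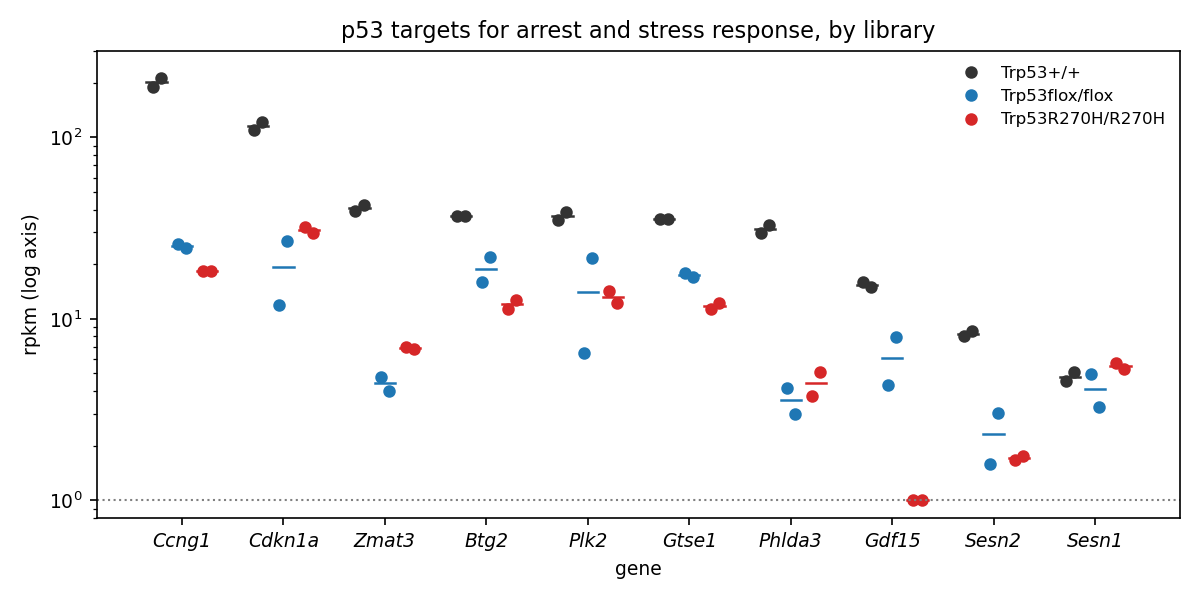
The vertical axis gives rpkm on a log scale and the horizontal axis the 10 genes, ordered by their Trp53+/+ mean. Each point is 1 library, each short line the mean of the 2 libraries of a genotype, and the dotted line the floor of 1 rpkm. The Trp53+/+ points stand above all 4 mutant points for every gene except Sesn1, and both Trp53R270H/R270H points of Gdf15 lie on the floor.

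Among the genes for cell cycle arrest, *Cdkn1a* and *Ccng1* were the most abundant members in *Trp53*+/+. *Cdkn1a* (chr17:29090976-29100727, plus strand) encodes p21, an inhibitor of cyclin-dependent kinases. It measured 110 and 122 rpkm in *Trp53*+/+, 11.8 and 27.0 in *Trp53*flox/flox, with 31.9 and 29.5 in *Trp53*R270H/R270H. The mutant libraries all lay far below *Trp53*+/+, and the lowest value and the 2.28-fold gap between preparations were both in *Trp53*flox/flox. The log2 fold changes were -2.62 (limma adjusted p=0.0206) in *Trp53*flox/flox, then -1.88 (adjusted p=0.0353) in *Trp53*R270H/R270H. The mean that remained was 16.7% and 26.5% of *Trp53*+/+. In GENCODE, 273 of the 3553 exon bases of *Cdkn1a* also lie in AC167363.2, a gene on the opposite strand; the libraries were stranded, and whether strand was used to count was not stated.

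*Ccng1* (chr11:40748552-40755311, minus strand) encodes cyclin G1, a partner of Mdm2 and of a phosphatase subunit. It went from 190 and 213 rpkm in *Trp53*+/+ to 25.9 and 24.6 in *Trp53*flox/flox and 18.2 in both *Trp53*R270H/R270H libraries. The 3 genotypes did not overlap, and the libraries of each were close to each other. The log2 fold changes were -2.94 (limma adjusted p=0.00124) and -3.39 (adjusted p=0.00199), which ranked *Ccng1* the 37th and the 12th lowest of 10042 genes. It kept 12.5% of the *Trp53*+/+ mean without p53 and 9.06% with p53 R270H.

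*Btg2* and *Gtse1* fell less. *Btg2* (chr1:134075170-134079120, minus strand) encodes an antiproliferative protein that recruits the deadenylase of mRNA tails. Its libraries stood at 36.9 and 36.6 rpkm in *Trp53*+/+, 15.9 and 21.9 in *Trp53*flox/flox, with 11.3 and 12.7 in *Trp53*R270H/R270H, with no overlap between genotypes. The log2 fold change was -0.94 (limma adjusted p=0.0328) without p53 and -1.54 (adjusted p=0.00904) with p53 R270H. *Gtse1* (chr15:85859745-85876573, plus strand) encodes a microtubule-bound protein of G2 and S phase that binds p53. It measured 35.6 and 35.3 rpkm in *Trp53*+/+, 17.8 and 16.9 in *Trp53*flox/flox, with 11.4 and 12.2 in *Trp53*R270H/R270H. Here too the genotypes were fully separate, with log2 fold changes of -0.99 (limma adjusted p=0.0117) and -1.51 (adjusted p=0.00367).

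*Plk2* (chr13:110395046-110400844, plus strand), which encodes a polo-like kinase induced by stress, was the member whose *Trp53*flox/flox preparations differed most. The values were 34.9 and 38.6 rpkm in *Trp53*+/+, 6.49 and 21.5 in *Trp53*flox/flox, with 14.2 and 12.2 in *Trp53*R270H/R270H. All mutant libraries were below *Trp53*+/+, yet neither difference was called. The log2 fold changes were -1.54 (95% interval -2.82 to -0.25, limma adjusted p=0.105) and -1.41 (-2.70 to -0.13, adjusted p=0.129). The test shares 1 spread among the genotypes, and the 3.32-fold gap between the *Trp53*flox/flox libraries entered both intervals. Fitted to *Trp53*+/+ and *Trp53*R270H/R270H alone, the same log2 fold change of *Plk2* had a limma adjusted p of 0.000628. In that fit 6320 of the 10042 genes tested had an unadjusted limma p under 0.05, against 3209 with all libraries fitted.

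**Figure D2:**
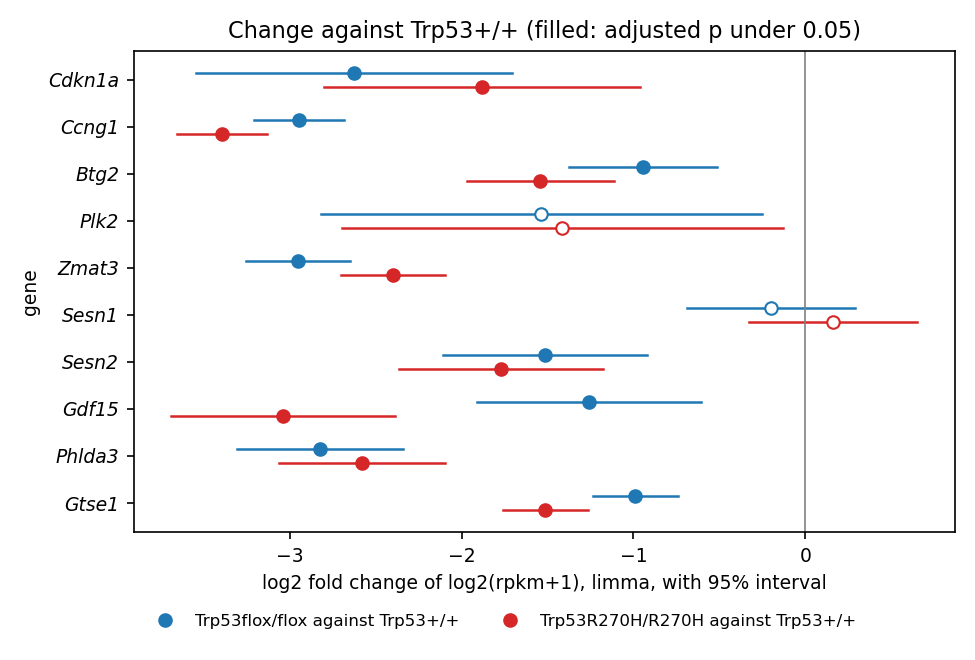
The horizontal axis gives the log2 fold change of log2(rpkm+1) against Trp53+/+, and the vertical axis the 10 genes. Points are limma estimates with 95% intervals, blue for Trp53flox/flox and red for Trp53R270H/R270H, filled where the adjusted p was under 0.05. Only the 2 intervals of Sesn1 cross 0, and both points of Plk2 are open.

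Among the stress response genes, the paired Sestrins did not move alike. Sestrins restrain mTORC1 growth signaling when amino acids are short and limit oxidative damage. *Sesn2* (chr4:132492032-132510501, minus strand) stood at 8.01 and 8.53 rpkm in *Trp53*+/+, at 1.59 and 3.04 in *Trp53*flox/flox, with 1.67 and 1.75 in *Trp53*R270H/R270H. All mutant values were below *Trp53*+/+ and near the floor. The log2 fold changes were -1.52 (limma adjusted p=0.0263) and -1.77 (adjusted p=0.0149), on a scale that understates changes at such low levels. *Sesn1* (chr10:41809935-41908424, plus strand) measured 4.52 and 5.08 rpkm in *Trp53*+/+, 4.95 and 3.26 in *Trp53*flox/flox, with 5.68 and 5.30 in *Trp53*R270H/R270H. The *Trp53*flox/flox values overlapped those of *Trp53*+/+, and both *Trp53*R270H/R270H values were the highest. Neither difference was called, at -0.20 (95% interval -0.69 to 0.29, limma adjusted p=0.479) and 0.16 (-0.33 to 0.65, adjusted p=0.611), so a fall as large as that of *Sesn2* lay outside both intervals.

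*Gdf15* (chr8:70629393-70632456, minus strand), a secreted cytokine raised by p53 and by the integrated stress response, was the member on which the mutant genotypes differed most. It measured 15.9 and 15.0 rpkm in *Trp53*+/+, 4.30 and 7.89 in *Trp53*flox/flox and did not rise above the floor in either *Trp53*R270H/R270H library. The order was the same in every library, with *Trp53*flox/flox in between. Its level was at least 15.4-fold lower in *Trp53*R270H/R270H than in *Trp53*+/+, and *Trp53*flox/flox kept 39.5% of the *Trp53*+/+ mean. The fitted log2 fold changes were -1.26 (limma adjusted p=0.0413) without p53 and -3.04 (adjusted p=0.00464) with p53 R270H, the latter depending on the floor.

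*Phlda3* and *Zmat3* were low in both mutants. *Phlda3* (chr1:135766119-135769136, plus strand) encodes a small lipid-binding protein that competes with Akt for the membrane. Its values were 29.6 and 32.8 rpkm in *Trp53*+/+, 4.16 and 2.99 in *Trp53*flox/flox, with 3.77 and 5.06 in *Trp53*R270H/R270H, with the mutants overlapping. It fell by 2.82 (limma adjusted p=0.00423) and by 2.58 (adjusted p=0.00367) on the log2 scale. *Zmat3* (chr3:32334792-32366014, minus strand) encodes a zinc finger protein that binds RNA and acts on splicing. It measured 39.2 and 42.2 rpkm in *Trp53*+/+, 4.80 and 4.0 in *Trp53*flox/flox, with 6.99 and 6.81 in *Trp53*R270H/R270H, which were fully separate. Its log2 fold changes were -2.95 (limma adjusted p=0.00185) and -2.40 (adjusted p=0.00354), leaving 10.8% and 17.0% of the *Trp53*+/+ mean.

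The count of 8 in each comparison depended on single libraries. With either *Trp53*+/+ library left out, 1 member, *Ccng1*, was called lower in *Trp53*flox/flox, but 0 in *Trp53*R270H/R270H, although 8 members had an unadjusted limma p under 0.05 in each of these fits. Without *Trp53*R270H/R270H replicate 1 the counts were 3 and 0, and without its replicate 2 they were 3 and 4. Without *Trp53*flox/flox replicate 1 they were 10 and 9, and without its replicate 2 they were 9 and 9. Fits of only the 2 genotypes compared called 3 members in *Trp53*flox/flox, *Ccng1*, *Phlda3* and *Zmat3*, and 9 in *Trp53*R270H/R270H, all but *Sesn1*. Weights for each genotype called 4 and 9. The counts over all genes moved with these settings, from 8 genes called lower in *Trp53*flox/flox without *Trp53*+/+ replicate 1 to 3690 without *Trp53*flox/flox replicate 2, so the members' counts are to be read against them. Leaving out a *Trp53*flox/flox library removes the widest spread from the fit and assumes that the remaining library varies like the other genotypes. Counts from fits with a library left out, given below for other lists, are likewise to be read against those over all genes.

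The next comparison asks whether organoids with p53 R270H differ from organoids without p53. Of the 10 members, *Ccng1*, *Gtse1* and *Gdf15* were called lower in *Trp53*R270H/R270H than in *Trp53*flox/flox and *Zmat3* was called higher, while 11.0% of all genes tested were called lower and 13.6% higher. The median log2 fold change of the members was -0.07, against 0.03 for all genes tested. Both *Trp53*R270H/R270H libraries lay below both *Trp53*flox/flox libraries in 4 members and above both in 3, and the genotypes overlapped in 3. How many of all genes tested were as separate was not counted. An unadjusted limma p under 0.05 was found for 5 members and for 4269 of the 10042 genes tested. *Gdf15* was at least 6.09-fold lower (log2 fold change -1.78, limma adjusted p=0.0135). *Gtse1* was lower by a log2 fold change of -0.52 (adjusted p=0.0223) and *Ccng1* by -0.45 (adjusted p=0.0355), whereas *Zmat3* was higher by 0.55 (adjusted p=0.0313). *Btg2* had a log2 fold change of -0.60 (95% interval -1.03 to -0.17, adjusted p=0.0568). *Cdkn1a* had a log2 fold change of 0.74, with a 95% interval from -0.18 to 1.66 (adjusted p=0.177), so a rise of over 2-fold and no change both lay inside it. The intervals were -1.16 to 1.40 for *Plk2*, -0.85 to 0.34 for *Sesn2*, -0.24 to 0.73 for *Phlda3* and -0.12 to 0.85 for *Sesn1*, none of which was called. In a fit of only these 2 genotypes, 5 members had an unadjusted limma p under 0.05, as did 3045 of the 10042 genes tested. That fit gave 0 calls of members in either direction. The same counts were 0 without either *Trp53*+/+ library (5 members at an unadjusted p under 0.05) and without *Trp53*R270H/R270H replicate 1 or 2 (4 and 5 members). With each library left out in turn, the log2 fold change of *Gdf15* ranged from -2.15 to -1.40. That of *Cdkn1a* ranged from 0.18 to 1.30, and that of *Plk2* from -0.67 to 0.92. The counts called without a *Trp53*flox/flox library changed for all genes as well as for the members.

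**Figure D3:**
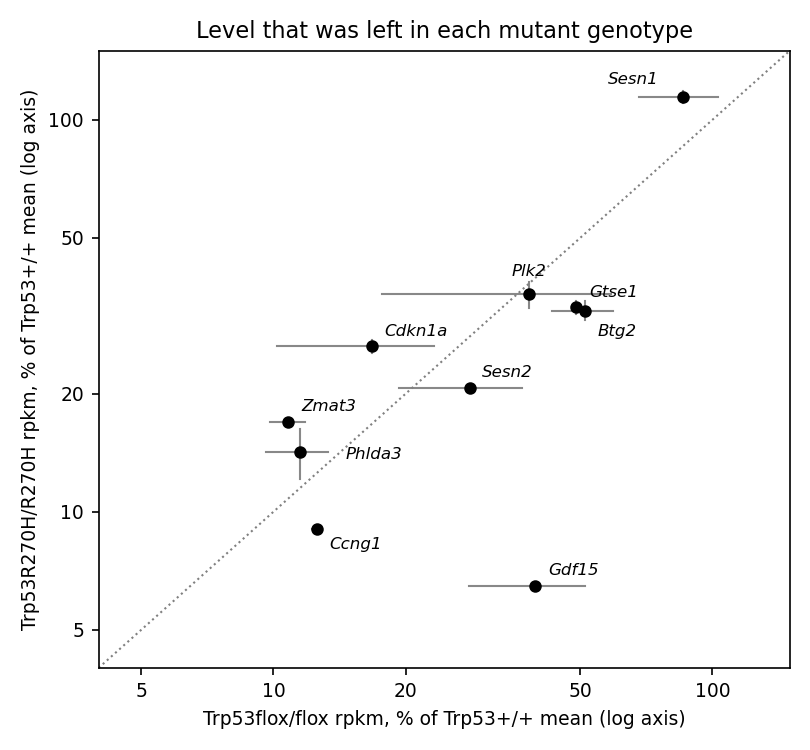
The horizontal axis gives the Trp53flox/flox mean and the vertical axis the Trp53R270H/R270H mean of each gene, as a percent of the Trp53+/+ mean of rpkm, both on log scales. Lines join the 2 libraries of a genotype, the dotted line marks equal levels, and the vertical value of Gdf15 is an upper limit because both libraries were at the floor. Gdf15 lies farthest below the line, and Sesn1 is the gene near 100%.

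The *Trp53*flox/flox preparations differed from each other in some members and not in others. Replicate 2 stood above replicate 1 by 3.32-fold for *Plk2*, 2.28-fold for *Cdkn1a*, 1.91-fold for *Sesn2*, 1.84-fold for *Gdf15* and 1.38-fold for *Btg2*. *Ccng1* and *Gtse1* were nearly equal between the preparations, at ratios of 0.95, and *Zmat3*, *Phlda3* and *Sesn1* were lower in replicate 2, at 0.83, 0.72 and 0.66. Across all genes tested, the higher of these libraries exceeded the lower by a median of 1.30-fold, and across the members by 1.45-fold. The largest such ratio of a member was 1.12 in *Trp53*+/+ and 1.34 in *Trp53*R270H/R270H. Markers of other cell types also differed between these preparations. The summed level of 8 fibroblast markers was 8.0 rpkm, all at the floor, in replicate 1 and 20.2 rpkm in replicate 2, where *Acta2* was at 11.5, and 4 of the 8 were at the floor in all libraries. That sum was 8.0 in both *Trp53*+/+ libraries and 8.53 and 8.59 in *Trp53*R270H/R270H. Of 4 endothelial markers, with a sum of 4.0 and 26.7 rpkm, *Tek* was at 1 and 21.4 rpkm, while *Pecam1* and *Kdr*, which define that cell type, were at the floor in all 6 libraries. The endothelial sum was 14.9 and 15.3 rpkm in *Trp53*+/+, where *Cdh5* was at 8.88 and 9.35, and 4.20 and 4.13 in *Trp53*R270H/R270H. The part of these markers in the members' values was not tested. In such bulk libraries, fewer cells of a type and less RNA per cell cannot be told apart.

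The tissue label was checked against 8 intestinal epithelial markers, all of which were above the floor in every library. Their summed level was 2920 and 2864 rpkm in *Trp53*+/+, 4557 and 4228 in *Trp53*flox/flox, with 2326 and 2506 in *Trp53*R270H/R270H, and its part in the differences was not tested. Of 7 immune markers, 6 were at the floor in all libraries, *Ptprc* included, and *Cd68* stood at 10.2 and 9.87, then 2.06 and 11.1, then 2.22 and 2.41 rpkm. Of 9 markers of differentiated enterocytes, 4 were at the floor throughout, and their sum was 68.2 and 74.9, then 28.1 and 33.1, then 49.2 and 38.8 rpkm.

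Other p53 targets, which act in apoptosis, DNA repair, metabolism and feedback, were more often called lower than higher in both mutants. Of 35 listed, 32 passed the filter. In *Trp53*flox/flox, 13 were called lower and 2 higher, and in *Trp53*R270H/R270H 16 were called lower and 0 higher, with 12 lower in both. Of all genes tested, 6.90% and 6.36% were called lower, and 4.38% and 5.86% higher. At an unadjusted limma p under 0.05, 22 of the list were lower and 0 higher in *Trp53*R270H/R270H. Of the 10042 genes tested, 1560 were lower and 1649 higher at that threshold. Without either *Trp53*+/+ library, no gene of the list was called in either mutant, though many had an unadjusted limma p under 0.05. The same held for *Trp53*R270H/R270H without its replicate 1. Over the other libraries left out, the number called lower moved widely in both mutants, as did that over all genes tested. The median log2 fold changes of the list were -0.62 and -0.85. *Psrc1*, a spindle-associated protein, stood at 48.4 and 50.3 rpkm in *Trp53*+/+, 6.99 and 6.63 in *Trp53*flox/flox, with 4.38 and 5.03 in *Trp53*R270H/R270H (log2 fold changes -2.69 and -3.14, limma adjusted p=0.00185 and 0.00199). *Eda2r*, a receptor of the tumor necrosis factor family, was at 8.29 and 9.94 rpkm in *Trp53*+/+ and at the floor in all 4 mutant libraries. *Trp53inp1*, which encodes a nuclear protein that aids p53 under stress, had log2 fold changes of -2.99 (adjusted p=0.0147) and -1.54 (adjusted p=0.0511). The exceptions in *Trp53*flox/flox were *Sfn*, the 14-3-3 sigma protein of G2 arrest, at a log2 fold change of 0.90 (adjusted p=0.0274), and the glutaminase *Gls2* at 0.74 (adjusted p=0.0463).

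Genes of the same families as the members were listed beside them. Of 16 paralogs, 15 passed the filter, of which 1 was called lower and 3 higher in each mutant genotype, where 4.38% and 5.86% of all genes tested were called higher, with median log2 fold changes of 0.18 and 0.20. Without either *Trp53*+/+ library or either *Trp53*R270H/R270H library, 0 were called in either mutant, with 4 to 6 at an unadjusted limma p under 0.05. With either *Trp53*flox/flox library left out, where more of all genes tested passed, more paralogs were called in each mutant genotype, mostly higher. *Tob1*, the antiproliferative relative of *Btg2*, was the one called lower in both, at log2 fold changes of -1.42 (limma adjusted p=0.0127) and -0.87 (adjusted p=0.0266). Beside *Cdkn1a*, the kinase inhibitor *Cdkn1c* was at 6.42 and 4.87 rpkm in *Trp53*+/+, 5.69 and 9.79 in *Trp53*flox/flox, with 23.5 and 24.8 in *Trp53*R270H/R270H. The last genotype lay above all other libraries (log2 fold change 1.93, adjusted p=0.0150), and it was also higher than *Trp53*flox/flox (1.56, adjusted p=0.0173). *Cdkn1b* measured 15.5 and 14.6, then 16.1 and 18.3, then 13.6 and 15.8 rpkm and was not called in any comparison. *Sesn3*, the remaining Sestrin, was higher in *Trp53*R270H/R270H by 0.94 (adjusted p=0.0163), with 19.3 and 19.1 rpkm against 10.3 and 8.91 in *Trp53*+/+. *Gdf11*, a relative of *Gdf15* in the TGF-beta superfamily, was higher there by 1.44 (adjusted p=0.0382). In *Trp53*flox/flox the genes called higher were *Plk1* at 1.05 (adjusted p=0.0298), *Ccng2* at 0.99 (adjusted p=0.0167) and *Plk4* at 0.46 (adjusted p=0.0488).

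**Figure D4:**
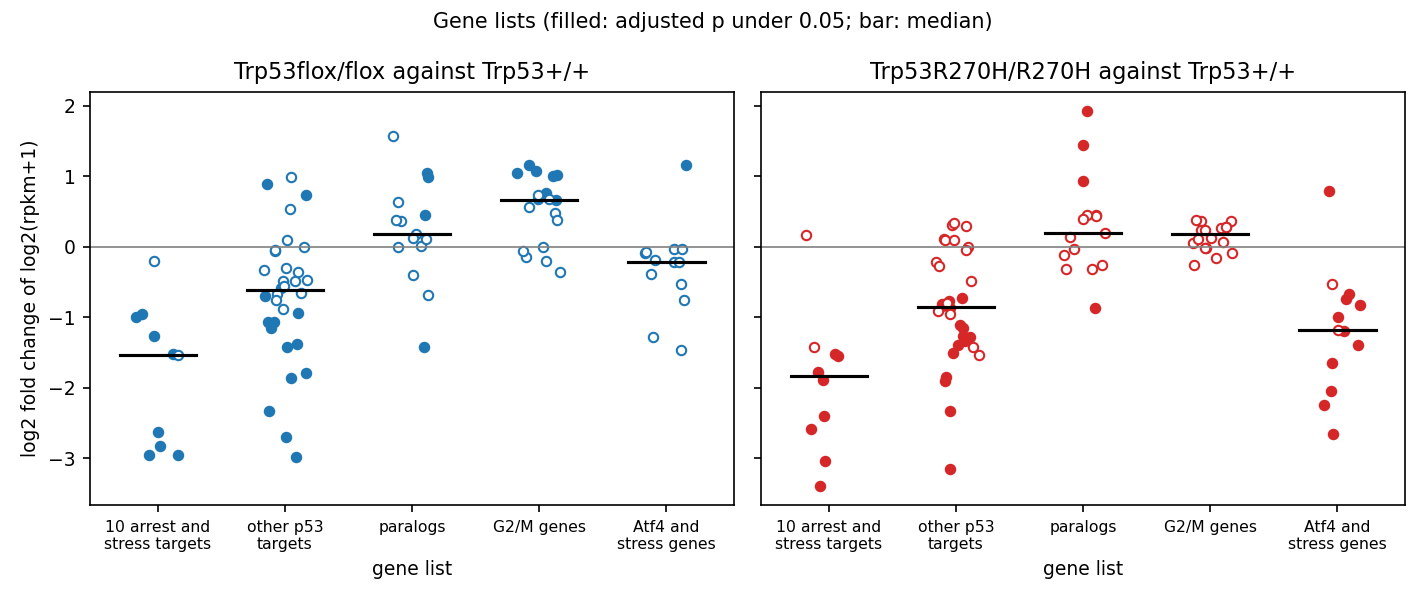
The vertical axis gives the log2 fold change of log2(rpkm+1) against Trp53+/+, on the left for Trp53flox/flox and on the right for Trp53R270H/R270H, and the horizontal axis 5 gene lists. Each point is 1 gene, filled where the limma adjusted p was under 0.05, and the bars are list medians. The medians of the 10 members are -1.53 and -1.83, those of the paralogs are above 0, and that of the Atf4 list is -0.22 on the left and -1.18 on the right.

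The cell cycle machinery that p21 acts on was also listed. Of 18 G2/M genes, 8 were called higher in *Trp53*flox/flox than in *Trp53*+/+ and 0 lower, against 4.38% of all genes tested called higher, with a median log2 fold change of 0.67. Weights for each genotype called 1 of them, and the fit of only these 2 genotypes called 0, with 12 at an unadjusted limma p under 0.05. They were led by *Cdc20*, an activator of the anaphase ligase, at 1.16, and its conjugating enzyme *Ube2c* at 1.08. At an unadjusted limma p under 0.05, 2 genes of that list were higher in *Trp53*R270H/R270H and 0 lower, while 1649 of the 10042 genes tested were higher. In *Trp53*R270H/R270H 0 genes of the list were called in either direction by limma, and its median was 0.18. That 0 depended on the *Trp53*flox/flox spread, since genes of the list were called, mostly higher, with either of its libraries left out. In those fits more of all genes tested passed as well. Against *Trp53*flox/flox, 7 of the 18 were lower in *Trp53*R270H/R270H, where 11.0% of all genes tested were called lower. The median of the list was -0.42. With either *Trp53*flox/flox library left out, where more of all genes tested passed, more of the 18 were called in *Trp53*flox/flox against *Trp53*+/+, mostly higher. With any 1 library of the other genotypes left out, 0 were called in *Trp53*flox/flox, with 9 to 12 at an unadjusted p under 0.05. Of 13 cyclins, cyclin-dependent kinases and *Pcna*, 1 was called lower in *Trp53*flox/flox and 4 higher. The shares of all genes tested were 6.90% and 4.38%. *Ccnd2*, a cyclin of G1, was the one lower, at -1.70 (limma adjusted p=0.0264). All 5 calls were lost with weights for each genotype, with only these 2 genotypes fitted, and with any 1 *Trp53*+/+ or *Trp53*R270H/R270H library left out, with 7 to 9 genes at an unadjusted p under 0.05. With either *Trp53*flox/flox library left out, where more of all genes tested passed, more of the 13 were called, mostly higher. In *Trp53*R270H/R270H, where 6.36% of all genes tested were called lower and 5.86% higher, 2 genes of the list were called. *Ccnd1* was lower by -0.89 (limma adjusted p=0.0349) and *Ccne1* higher by 0.63 (adjusted p=0.0271). Neither was called with any 1 *Trp53*+/+ or *Trp53*R270H/R270H library left out, where genes of the list still had an unadjusted limma p under 0.05. More of the list was called with either *Trp53*flox/flox library left out, where more of all genes tested passed as well.

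Since *Gdf15* and *Sesn2* are also targets of Atf4, the factor that translates amino acid and endoplasmic reticulum stress into transcription, 14 genes of that response were listed, of which 13 passed the filter. In *Trp53*R270H/R270H 10 were called lower and 1 higher, with a median log2 fold change of -1.18, whereas in *Trp53*flox/flox 0 were lower and 1 higher, with a median of -0.22. Of all genes tested, 6.36% and 6.90% were called lower, and 5.86% and 4.38% higher. At an unadjusted limma p under 0.05, 3 of the 13 were lower and 1 higher in *Trp53*flox/flox. The contrast between the mutants in these counts depended on single libraries. With either *Trp53*flox/flox library left out, genes of the list were called lower in *Trp53*flox/flox, in fits where more of all genes tested passed as well. With any 1 *Trp53*+/+ or *Trp53*R270H/R270H library left out, 0 were called in *Trp53*R270H/R270H against *Trp53*+/+, with 11 at an unadjusted p under 0.05. The difference between the mutants was tested directly, where 11.0% of all genes tested were called lower and 13.6% higher. Of the 13, 7 were lower in *Trp53*R270H/R270H than in *Trp53*flox/flox and 0 higher. Fewer were called lower without either *Trp53*+/+ library, and no gene of the list without either *Trp53*R270H/R270H library. Genes of the list still had an unadjusted limma p under 0.05 in the latter fits. More were called lower with either *Trp53*flox/flox library left out, where more of all genes tested passed as well. *Trib3*, a pseudokinase induced by Atf4, measured 24.6 and 24.2 rpkm in *Trp53*+/+, 12.4 and 22.5 in *Trp53*flox/flox, with 2.68 and 3.44 in *Trp53*R270H/R270H. *Chac1*, which degrades glutathione, measured 22.3 and 22.6, then 15.7 and 23.3, then 3.39 and 4.61 rpkm. In both genes the 2 *Trp53*R270H/R270H libraries lay below all others, with log2 fold changes against *Trp53*flox/flox of -2.13 (limma adjusted p=0.0109) and -2.02 (adjusted p=0.00695). *Atf4* itself was lower in *Trp53*R270H/R270H than in *Trp53*+/+ by -0.74 (adjusted p=0.0301), and *Atf3* was the one called higher in both mutants, at 1.16 (adjusted p=0.0238) and 0.79 (adjusted p=0.0462). The element TGATGNAA, which Atf4 dimers bind, was in 0 of the 13 member windows on either strand and in 3.97% of all windows, which says nothing about the factor. Of 12 genes of the complexes through which Sestrins act on mTORC1, 0 were called in either mutant against *Trp53*+/+ by limma. At an unadjusted limma p under 0.05, 3 of the 12 were lower in *Trp53*flox/flox, as were 1837 of the 10042 genes tested. In *Trp53*R270H/R270H 2 of the 12 were higher at that threshold, as were 1649 of all genes tested. The 0 for *Trp53*flox/flox did not hold with either of its libraries left out, in fits that also changed the counts over all genes. Among the 12, *Tsc2*, which holds mTORC1 in check, was the one called between the mutants, higher with p53 R270H by 0.50 (limma adjusted p=0.0414).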

How the data were processed

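Stranded libraries of polyadenylated RNA were run on an Illumina sequencer. Reads were aligned to mm10 and summarized as rpkm by the authors in StrandNGS, and the deposited rpkm table of 36172 genes was the starting point. The StrandNGS version and annotation are not given in the sources used here. The minimum of every library is 1, and from this it was inferred that smaller values had been set to 1. The table holds no counts, so the depth is unknown here and no counting interval was given.

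log2(rpkm+1) of the 10042 genes that reached 4 rpkm in 1 or more libraries was fitted in limma 3.58.1 (R 4.3.3; lmFit, eBayes with trend) for all 6 libraries without a block. Tests were two-sided, with Benjamini-Hochberg adjustment over these genes at 0.05. Summaries used Python 3.11.15, pandas 2.3.3, numpy 2.4.6 and matplotlib 3.10.9. The code was tested on simulated data.

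The members and lists were chosen with earlier results of these data known. All members were named, *Trp53* and *Mdm2* checked the genotype, and from each other list up to 5 called genes by absolute fold change in a comparison could be named, paralogs freely. Markers and further genes given with their values fall outside that rule and were chosen after their values were seen. *Pidd1*, *Tigar*, *Ero1a* and *Adgre1* were matched under older symbols through RefSeq gene identifiers. Gene positions are from GENCODE M21 (GRCm38), and promoter sequences from RefSeq (GRCm38.p6). The titles number the replicates, but libraries with equal numbers are of different mice, and their deviations from the genotype means correlated at 0.117, -0.291 and -0.196, so the numbers were not used as a pairing. The alternatives were other filters, pseudocounts, scalings and spreads, the replicate block, and each library left out in turn.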

Additional observations from a re-analysis of the deposited data

How the results depend on the processing

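Members kept their direction in 169 of 170 alternative values in *Trp53*flox/flox, 170 of 170 for *Trp53*R270H/R270H and 168 of 170 between the mutants. The exceptions left out 1 library. The other filters, eBayes without trend, weights, fits of only 2 genotypes and the replicate blocks could not change a fold change. Nor could leaving out a library of the genotype outside the comparison, so many of these values had a direction fixed in advance. The log2 fold change of *Sesn1* in *Trp53*flox/flox ranged from -0.44 to 0.040 over libraries left out, the last without *Trp53*flox/flox replicate 2. Between the mutants, *Sesn2* ranged from -0.58 to 0.064, the last without the same library, and *Plk2* from -0.67 (limma adjusted p=0.00712), without *Trp53*flox/flox replicate 1, to 0.92. Filters, pseudocounts, scalings and eBayes without trend gave 7 or 8 members called lower in *Trp53*flox/flox, with 8 for *Trp53*R270H/R270H. The 7 came without a pseudocount, where *Gdf15* had an adjusted p of 0.0509.

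Weights for each genotype called 4 members in *Trp53*flox/flox and 1 lower and 0 higher between the mutants, and fits of only 2 genotypes called 3, 0 and 0. For all genes, weights called 115 lower in *Trp53*flox/flox, 2787 in *Trp53*R270H/R270H, and 157 lower and 377 higher between the mutants, and fits of only 2 genotypes called 38, 2585, 121 and 257, against 693, 639, 1107 and 1362. The cause was not tested.

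With the replicate block, 5 members were called lower in *Trp53*flox/flox, 7 in *Trp53*R270H/R270H, and 1 was called lower and 0 higher between the mutants. Of all genes, the block called 209, 295, 488 and 668. Exchanging the *Trp53*R270H/R270H numbers, an alternative chosen after seeing the data, called 6, 8, 2 and 0 members.

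Leaving out each library in turn, where the lone sample is assumed to vary like the other groups, called 1 to 10 members in *Trp53*flox/flox, 0 to 9 in *Trp53*R270H/R270H, and 0 to 6 lower and 0 to 3 higher between the mutants. Of all genes it called 8 to 3690 lower in *Trp53*flox/flox, 0 to 2597 in *Trp53*R270H/R270H, and 30 to 3387 lower and 135 to 3854 higher between the mutants. Among the members, *Gdf15* alone reached the floor of 1 rpkm, in both *Trp53*R270H/R270H libraries.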

Other observations

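The genes whose profile over the 6 libraries lay nearest to that of *Cdkn1a*, by the Euclidean distance of log2(rpkm+1) centred on the *Trp53*+/+ mean, were *Aldh1l2* (0.29), *Tpd52l1* (0.51), *Trp53inp1* (0.71), *Aldh2* (0.71) and *Gstm3* (0.84), of which *Trp53inp1* is on the list of other p53 targets. *Aldh1l2*, a mitochondrial enzyme of folate metabolism, measured 17.7 and 20.9 rpkm in *Trp53*+/+, 1.39 and 4.58 in *Trp53*flox/flox and 4.05 and 4.21 in *Trp53*R270H/R270H. *Tpd52l1* measured 29.4 and 29.8, then 2.76 and 6.29, then 5.22 and 6.82 rpkm. The likeness was measured on these same 6 libraries, so what the 5 genes share with *Cdkn1a* follows from how they were picked. By limma, *Aldh1l2* and *Tpd52l1* were called lower in both mutants, *Trp53inp1* and *Gstm3* in *Trp53*flox/flox alone, and *Aldh2* in neither (adjusted p of 0.0602 and 0.104). Among the members, the nearest to *Cdkn1a* were *Zmat3* (distance 1.28, the 31st of all genes tested) and *Phlda3* (1.5, the 50th), and the farthest was *Sesn1* (4.62, the 4628th).

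*Alpi*, the alkaline phosphatase of the enterocyte brush border, was at 4.86 and 10.7 rpkm in *Trp53*+/+, at the floor in both *Trp53*flox/flox libraries and at 8.80 and 4.35 in *Trp53*R270H/R270H (limma adjusted p=0.0426 for *Trp53*flox/flox against *Trp53*+/+ and 0.0351 between the mutants).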
